A study of Mus musculus with 12 samples.

Results

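Chemokines and their receptors were followed through 3 kinds of dorsal root ganglion (DRG) sample. The set was chosen by gene symbol alone, as the numbered Ccl and Cxcl ligands, Cx3cl1, the numbered Ccr and Cxcr receptors and Xcr1, and held 51 rows of the 24490 in the table, for 50 symbols, because Ccl19 was listed on chromosome 4 and again on an unplaced scaffold of it. It comprised 20 rows of CC ligands, 13 CXC ligands, 1 CX3C ligand and 17 receptors. No level of expression was required for membership, so every member is accounted for below. The partners of these genes whose names fall outside that pattern, such as the atypical receptors Ackr1 and Ackr3, were not members and are given only where a member turns on them.

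RNA was sequenced from 12 samples, 4 each of intact DRG, of DRG dissociated with enzymes and left unsorted, and of DRG sorted by MACS (magnetic-activated cell sorting). All samples came from adult male C57Bl/6 mice with no other treatment named, and ganglia of all spinal levels were taken. An intact sample held the ganglia of 1 mouse and was frozen directly, an unsorted sample pooled 2 mice and a MACS-sorted sample pooled 8 mice. Magnetic sorting was by exclusion. Dissociated cells were labelled with an antibody cocktail against non-neuronal cells and the unlabelled cells were kept. Because the samples of each group differed in the number of mice pooled, the spread between samples is not the same quantity in the 3 groups. Expression is given as FPKM (fragments scaled for transcript length and for the number mapped in the sample).

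Chemokines are small secreted or membrane-tethered proteins that steer the movement of leukocytes along a gradient, and their receptors are seven-helix proteins that signal mainly through Gi proteins. CC, CXC and CX3C ligands are named for the spacing of their conserved cysteines, and a receptor usually binds several ligands of the same class. In the DRG, chemokines from fibroblasts, macrophages, vessels and neurons are best known for drawing in immune cells after nerve injury and for sensitising sensory neurons.

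Each of the 10 neuronal markers examined, among them Tubb3, Uchl1 and Avil, was present in all samples of the 3 groups, with sums of 3675 to 3928 FPKM in intact samples, 4372 to 4691 FPKM in unsorted samples and 3935 to 5043 FPKM after sorting. Sums of 9 satellite glial genes were 2145 to 2694, 2656 to 3299 and 96.6 to 255 FPKM. Sums of 15 macrophage genes were 82.8 to 181, 28.4 to 56.7 and 1.36 to 7.84 FPKM, and those of 9 fibroblast genes 836 to 1644, 235 to 480 and 11.4 to 47.9 FPKM. Red blood cell genes went the other way and summed to 1686 to 15370 FPKM in MACS-sorted samples, against 113 to 400 in unsorted samples. Intact replicate 1 stood apart from the other intact samples. Its median absolute log2 difference from each of them was 0.30 to 0.34 over 12461 genes, while the others lay 0.09 to 0.11 from each other, and its 8 skeletal muscle genes summed to 2448 FPKM against 14.0 to 57.1. Estimated depths were 16150000 to 19100000 fragments for intact, 15400000 to 18100000 for unsorted and 13350000 to 16800000 for sorted samples.

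Intact replicate 1 was also the highest of the intact samples for 38 of the 44 chemokine rows with a value in that group, or 86.4%, where it was highest for 42.5% of all genes. Intact values are therefore given sample by sample. Among MACS-sorted samples, replicate 4 was the highest for 14 of 35 rows, or 40%, against 31.6% of all genes.

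Most of the family was low or listed at 0. In all 12 samples 6 rows were listed at 0, namely Ccl20, Ccl26, Cxcl3, Cxcl15, Cxcl17 and the scaffold copy of Ccl19. A further 30 rows had a value in at least 1 sample but stayed under 1 FPKM in every group mean, with Ccl9 at 0.995 FPKM in intact DRG the highest of these means and Cxcl9 at 2.16 FPKM in intact replicate 1 the highest single value. The remaining 15 members reached a mean of 1 FPKM in at least 1 group. These were Ccl1, Ccl2, Ccl5, Ccl6, Ccl7, Ccl11, Ccl12, Ccl25, Cxcl1, Cxcl10, Cxcl12, Cxcl16, Cx3cl1 and the receptors Ccr2 and Cxcr4. The limit of 1 FPKM fell between Ccl9 and Ccr2, whose intact mean was 1.17 FPKM.

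Intact DRG gave a value above 0 for 44 rows, unsorted DRG for 42 and MACS-sorted DRG for 35. Over all genes these numbers were 17727, 17299 and 16413, and the median estimated depth was 18050000, 16650000 and 14850000 fragments. A row listed at 0 is not always one without fragments. Both rows of the globin gene Hba-a1 were listed at 0 in all 12 samples, while the rows of Hba-a2 at the same loci reached 4517 FPKM, so a 0 can also come from how fragments were assigned to rows, and for the scaffold row of Ccl19 this was not tested. A group mean of at least 1 FPKM was reached by 13, 9 and 7 members, and a mean above 5 FPKM by 3, 2 and 1. Above 5 FPKM in every sample were Ccl11, Cxcl12 and Cxcr4 in intact DRG, Cxcl12 and Cxcr4 in unsorted DRG and none in MACS-sorted DRG, where Cxcl12 passed that limit in 3 of 4 samples.

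**Figure D1:**
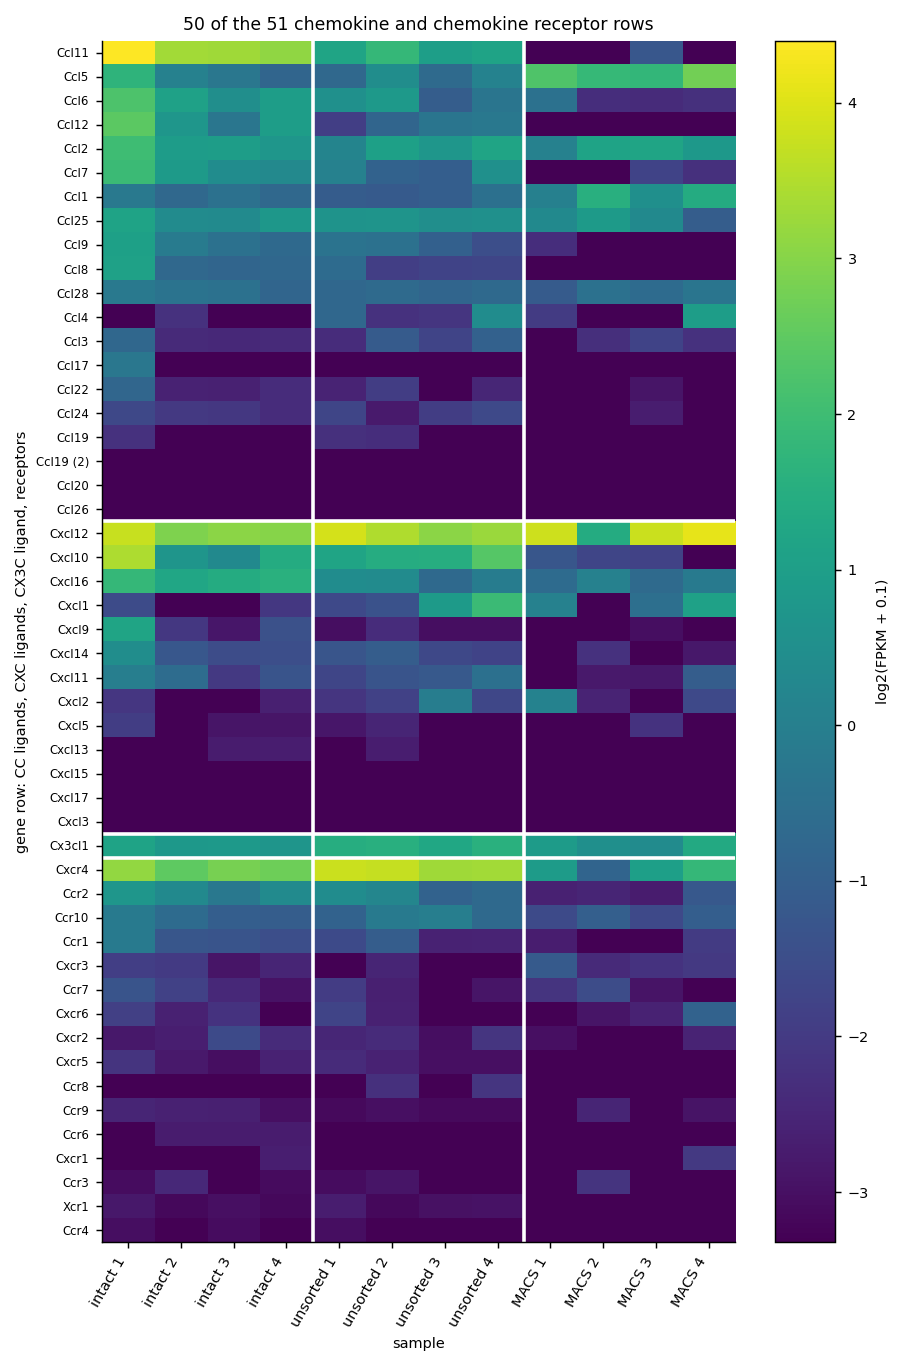
Chemokine and chemokine receptor rows, 50 of the 51 (y axis, grouped as CC ligands, CXC ligands, Cx3cl1 and receptors, in order of the highest group mean) in the 12 samples (x axis), coloured by log2(FPKM + 0.1). Cxcl12 is bright in all samples but MACS replicate 2, Ccl11 is brightest in intact samples and dark in MACS-sorted samples, Ccl5 is brightest in MACS-sorted samples, and most receptors are dark throughout.

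Many members sit beside each other in the genome (build mm10). Ccl2, Ccl7, Ccl11, Ccl12, Ccl8 and Ccl1 occupied chromosome 11 from 82035577 to 82179812, and Ccl5, Ccl9, Ccl6, Ccl3 and Ccl4 lay on the same chromosome from 83525779 to 83664683. Cxcl9, Cxcl10 and Cxcl11 were on chromosome 5 from 92321331 to 92363296. Neighbours did not share a pattern throughout. In the first of these groups of genes Ccl11, Ccl12 and Ccl7 had their lowest values in MACS-sorted DRG, Ccl1 its highest, and Ccl2 was alike in mean in unsorted and MACS-sorted DRG.

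Promoter sequences are shown for Cxcl12, Cxcr4 and Cxcl10, which had the highest group means among the members with an entry in the RefSeq promoter table (GRCm38.p6, the assembly of mm10). An entry was held for 35 of the 50 symbols and for 10 of the 15 members above 1 FPKM, and Ccl11, Ccl5, Ccl2, Ccl7 and Cxcl16 had none. Each sequence is the 250 bases before the annotated start, read 5′ to 3′ on the strand of the gene. Capitals mark matches on either strand to the kappaB form bound by NF-kappaB (GGG and CC with any 5 bases between), TGANTCA (the AP-1 form bound by Fos and Jun), a core of the interferon-stimulated response element (TTTC and TTTC with any 2 bases between), TATAAA (the TATA box) or GGGCGG (the GC box bound by Sp1), and matches that overlap run together.
Cxcl12, chr6:117168285-117168534, plus strand: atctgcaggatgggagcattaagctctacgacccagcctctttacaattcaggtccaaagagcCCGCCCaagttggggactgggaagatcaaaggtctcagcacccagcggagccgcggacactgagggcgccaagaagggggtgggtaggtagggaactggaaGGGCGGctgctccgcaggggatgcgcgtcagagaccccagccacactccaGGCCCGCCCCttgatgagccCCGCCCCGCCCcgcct
Cxcr4, chr1:128592300-128592549, minus strand: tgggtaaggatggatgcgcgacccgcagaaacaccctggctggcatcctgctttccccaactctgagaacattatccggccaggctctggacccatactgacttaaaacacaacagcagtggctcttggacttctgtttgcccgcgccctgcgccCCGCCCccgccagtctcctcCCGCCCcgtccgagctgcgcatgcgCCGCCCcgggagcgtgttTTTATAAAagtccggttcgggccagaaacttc
Cxcl10, chr5:92348890-92349139, minus strand: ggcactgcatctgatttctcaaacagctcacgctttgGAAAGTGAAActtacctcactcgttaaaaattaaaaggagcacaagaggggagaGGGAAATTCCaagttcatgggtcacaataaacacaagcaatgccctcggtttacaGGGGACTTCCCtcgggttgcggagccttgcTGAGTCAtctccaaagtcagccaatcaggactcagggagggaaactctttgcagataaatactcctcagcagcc
Cxcl12 held GC boxes at 5 places and no TATA box, with 1 kappaB match 36 bases before the start that overlapped a GC box. Cxcr4 held GC boxes at 95, 75 and 50 bases before the start and a TATA box 30 bases before it, which overlaps a match on the other strand at 32. Cxcl10 held kappaB matches at 159, 104 and 103 bases before its start, the last of which overlap each other, an AP-1 match at 74 and an interferon response match at 213, and neither a TATA nor a GC box. The kappaB form was found in 45.8% of all 32851 promoters of the same length and in 56.8% of the 37 entries for chemokine genes. The AP-1 form was found in 6.7% and 10.8%, the interferon response form in 3.0% and 8.1%, the TATA box in 12.4% and 29.7% and the GC box in 32.7% and 16.2%. These are matches of letters and say nothing of whether a factor was bound in these samples.

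Sorted and unsorted DRG were compared first, as sorting withdrew the cells that the non-neuronal cocktail labelled. Not all non-neuronal transcripts fell. Of 9 endothelial genes 0 passed the adjusted test, and 8 of 8 red blood cell genes tested rose (limma). The paper also describes enrichment of small neurons, and says that depleted transcripts could come from large neurons or from non-neuronal cells. The cells behind the level of each member were not tested. Group differences were tested with limma on log2(FPKM + 0.1) across all genes that averaged 1 FPKM or more in the samples compared, two-sided and with Benjamini-Hochberg adjustment, and a log2-fold change is the difference of group means on that scale, which understates the change of low genes. Of the 51 rows 10 passed the filter. Ccl5 and Ccl1 rose, Ccl11, Cxcl10, Cxcr4 and Cx3cl1 fell, and Ccl2, Ccl25, Cxcl1 and Cxcl12 did not pass an adjusted p of 0.05. Thus 2 of 10 rose and 4 of 10 fell, where 18.8% and 27.7% of the 12038 genes tested did. Ccl5 and Ccl1 had unsorted means under 1 FPKM and passed the filter through their sorted values alone. Ccl11, Cxcl10 and Cxcl1 passed it through their unsorted values alone. The filter thus favoured differences in these directions, and the counts are descriptive only. When the log2 ratio of means had also to exceed 0.5 and the higher of both means 5 FPKM, 0 members were called higher and 1, Cxcr4, was called lower, against 8.15% and 12.5% of all genes. By limma the unadjusted p was under 0.05 for 2 higher and 4 lower members. The median log2-fold change of the 10 members was -0.53, and that of all genes -0.04. Of the 43 rows with a value in these samples, in 3 all MACS-sorted samples exceeded all unsorted samples and in 12 all lay below them, and over all genes these shares were 13.8% and 25.0%.

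**Figure D2:**
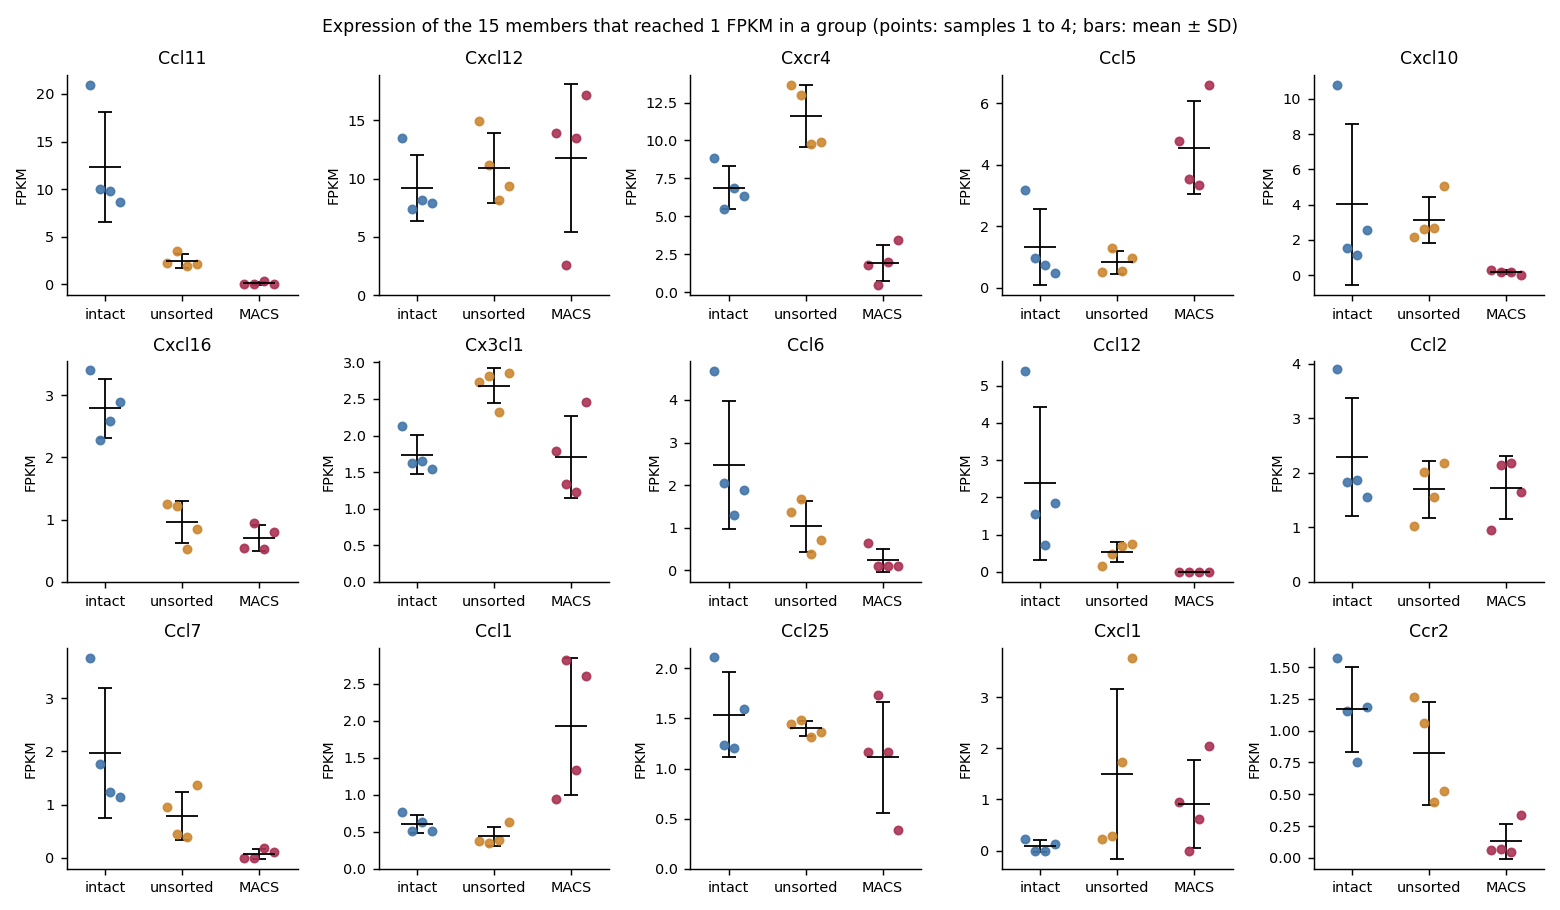
FPKM (y axis, from 0) of the 15 members that reached 1 FPKM, in intact, unsorted and MACS-sorted DRG (x axis), with a point for each of samples 1 to 4 from left to right and a bar for mean ± SD. Ccl11, Ccl12, Ccl6, Ccl7 and Cxcl16 step down from intact to sorted samples, Cxcr4 and Cx3cl1 are highest in unsorted samples, and Ccl5 and Ccl1 are highest in MACS-sorted samples.

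Cxcl12, the stromal ligand that retains and guides cells through the receptor Cxcr4, was among the most abundant chemokines in every group (chromosome 6, 117168535 to 117181368). Its level was 13.5, 7.40, 8.16 and 7.86 FPKM in intact replicates 1 to 4 and 14.96, 11.1, 8.15 and 9.32 FPKM in unsorted replicates 1 to 4. In MACS-sorted replicates 1 to 4 it was 13.9, 2.60, 13.5 and 17.2 FPKM. The 3 groups overlapped, and MACS replicate 2 was low by itself. The log2-fold change of sorted against unsorted DRG was -0.14 ± 0.52 (SE, n = 4 per group, adjusted p = 0.844, limma), and without MACS replicate 2 it was 0.47 (adjusted p = 0.0764, limma). Endothelial genes were also low in MACS replicate 2. The 9 endothelial genes examined, with Pecam1 and Cldn5 among them, summed to 34.7 FPKM there and to between 77.4 and 120 FPKM in MACS replicates 1, 3 and 4, against 80.7 to 99.0 in unsorted and 48.2 to 57.6 in intact samples. None of the 9 was at 0 in any group and 0 of 9 passed the adjusted test between sorted and unsorted DRG (limma). Sums of satellite glial genes (96.6 against 144 to 255 FPKM) and early response genes (170 against 247 to 310 FPKM) were likewise lowest in MACS replicate 2 among sorted samples. So were those of Schwann cell, fibroblast, lymphocyte and platelet genes. Macrophage, neutrophil, vascular mural cell and red blood cell sums were not, and neuronal and nociceptor sums were highest there. The part of endothelial or other cells in the level of Cxcl12 was not tested.

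Ccl5, an attractant of T cells and monocytes that is itself made by T and natural killer cells, was the member that rose most on sorting (chromosome 11, 83525779 to 83530518). It measured 3.17, 0.952, 0.735 and 0.469 FPKM in intact, 0.516, 1.29, 0.539 and 0.963 FPKM in unsorted and 4.76, 3.53, 3.33 and 6.61 FPKM in MACS-sorted replicates 1 to 4. All MACS-sorted samples were above all others, of which intact replicate 1 was the highest. The log2-fold change against unsorted DRG was 2.36 ± 0.32 (SE, n = 4 per group, adjusted p = 0.000224, limma) and the ratio of means 5.50. The mean of 4.56 ± 1.51 FPKM (SD, n = 4) in MACS-sorted DRG was under the limit of 5 FPKM, so that the 3 criteria together were not met. An estimated 20.8 to 36.3 fragments lay behind the MACS-sorted values. Fewer cells of a type and less RNA per cell cannot be told apart in these bulk samples, here and for every gene below.

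Lymphocyte genes moved with Ccl5 in part. Nkg7, a granule protein of natural killer and cytotoxic T cells, was 0.469, 0.808, 1.68 and 1.74 FPKM in MACS-sorted samples against 0 to 0.260 in unsorted samples, without overlap. Klrb1c and Ncr1, receptors of natural killer cells, had means of 0.398 and 0.468 FPKM in MACS-sorted and 0.0618 and 0.0321 FPKM in unsorted DRG. The B cell gene Ms4a1 was listed at 0 in every MACS-sorted sample. The 12 lymphocyte genes summed to 2.28 to 8.40 FPKM in MACS-sorted, 0.722 to 4.43 in unsorted and 2.30 to 8.86 in intact samples, and these ranges overlapped. None of the 12 reached the filter of 1 FPKM in this comparison, and their part in the level of Ccl5 was not tested.

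Ccl1, the ligand of the receptor Ccr8 and a product of activated T cells and mast cells, was the other member that rose (chromosome 11, 82176666 to 82179812). It stood at 0.763, 0.516, 0.636 and 0.508 FPKM in intact, 0.374, 0.351, 0.390 and 0.628 FPKM in unsorted and 0.939, 2.82, 1.33 and 2.60 FPKM in MACS-sorted replicates 1 to 4. The MACS-sorted samples were above every other sample and differed widely among themselves. The log2-fold change was 1.82 ± 0.37 (SE, n = 4 per group, adjusted p = 0.00305, limma) and the ratio of means 4.41, with a log2-fold change of 0.97 at a pseudocount of 1. Ccr8 itself was listed at 0 in all intact and MACS-sorted samples.

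Ccl11, or eotaxin, which attracts eosinophils and is made by fibroblasts, was the most abundant chemokine of intact DRG and was listed at 0 or low after sorting (chromosome 11, 82057832 to 82062955). Intact replicates 1 to 4 held 21.0, 10.0, 9.80 and 8.60 FPKM and unsorted replicates 2.20, 3.46, 1.90 and 2.15 FPKM. It was listed at 0 in 3 MACS-sorted samples and at 0.327 FPKM in replicate 3, an estimated 5.12 fragments. Whether any of these zeros was a failed estimate was not tested. The 3 groups did not overlap. Ccl11 fell between unsorted and sorted DRG (n = 4 per group, adjusted p = 0.000185, limma), and no fold is given, because with 3 samples at 0 its fitted size followed the pseudocount and went from -1.65 to -6.62 on the log2 scale with pseudocounts of 1 and 0.01. The mean in unsorted DRG was under 5 FPKM, so this decrease did not meet the 3 criteria together.

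Cxcl10, an interferon-induced ligand of Cxcr3 that attracts activated T cells, fell as well (chromosome 5, 92346639 to 92348889). Its level was 2.20, 2.65, 2.70 and 5.06 FPKM in unsorted replicates and 0.319, 0.207, 0.190 and 0 FPKM in MACS-sorted replicates 1 to 4. The log2-fold change was -3.64 ± 0.47 (SE, n = 4 per group, adjusted p = 0.000174, limma) and the ratio of means 17.6, and the log2-fold change was -1.78 with a pseudocount of 1 and -4.78 with 0.01, past the threshold in both. In intact DRG Cxcl10 was 10.8, 1.53, 1.16 and 2.57 FPKM, so that intact replicate 1 alone lay above every unsorted sample.

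Cx3cl1, or fractalkine, the membrane-tethered ligand of the microglial and macrophage receptor Cx3cr1, fell by less (chromosome 8, 94772180 to 94782426). It was 2.13, 1.62, 1.66 and 1.55 FPKM in intact, 2.73, 2.81, 2.33 and 2.86 FPKM in unsorted and 1.78, 1.33, 1.23 and 2.46 FPKM in MACS-sorted replicates 1 to 4. Unsorted and MACS-sorted samples overlapped, since MACS replicate 4 lay above unsorted replicate 3. The log2-fold change was -0.67 ± 0.21 (SE, n = 4 per group, adjusted p = 0.0277, limma). Under quantile normalization, which moved the median of all genes to 0.10 on the log2 scale, the change was -0.18 (adjusted p = 0.335, limma). It also missed the threshold on leaving out unsorted replicate 1, 2 or 4 or MACS replicate 2 or 3, with adjusted p between 0.0608 and 0.0731 by limma.

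Ccl2, the main attractant of monocytes, was alike in mean in the 2 preparations (chromosome 11, 82035577 to 82037452). It measured 3.90, 1.83, 1.88 and 1.55 FPKM in intact, 1.03, 2.02, 1.57 and 2.18 FPKM in unsorted and 0.948, 2.15, 2.18 and 1.65 FPKM in MACS-sorted replicates 1 to 4. The groups overlapped, and the log2-fold change of sorted against unsorted DRG was 0.01 ± 0.31 (SE, n = 4 per group, adjusted p = 0.976, limma). Its neighbours Ccl7 and Ccl12, which share the receptor Ccr2, were under the filter in this comparison. Ccl7 was 3.75, 1.76, 1.24 and 1.14 FPKM in intact, 0.945, 0.443, 0.396 and 1.36 FPKM in unsorted and 0, 0, 0.191 and 0.111 FPKM in MACS-sorted replicates 1 to 4. Ccl12 was 5.39, 1.56, 0.725 and 1.85 FPKM in intact and 0.169, 0.477, 0.708 and 0.758 FPKM in unsorted replicates, and was listed at 0 in all MACS-sorted samples. For both genes every MACS-sorted sample lay under every other sample.

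Ccl6, a macrophage product that acts on Ccr1, was also under the filter here (chromosome 11, 83587886 to 83593087). It was 4.67, 2.05, 1.29 and 1.88 FPKM in intact, 1.37, 1.67, 0.383 and 0.704 FPKM in unsorted and 0.640, 0.101, 0.0921 and 0.108 FPKM in MACS-sorted replicates 1 to 4. MACS replicate 1 lay above unsorted replicate 3, so the preparations overlapped. Ccl25, best known from thymus and gut, was 2.11, 1.23, 1.21 and 1.59 FPKM in intact, 1.45, 1.48, 1.31 and 1.37 FPKM in unsorted and 1.17, 1.74, 1.16 and 0.390 FPKM in MACS-sorted replicates. Its groups overlapped and its log2-fold change was -0.45 ± 0.37 (SE, n = 4 per group, adjusted p = 0.340, limma). Exons of Ccl25 and of Cxcl16 overlap genes on the opposite strand, Elavl1 and Zmynd15, and since the use of strand in counting is not given in the sources used here, reads of these pairs may be mixed.

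Cxcl16, a membrane-bound ligand of Cxcr6, was 3.40, 2.28, 2.59 and 2.89 FPKM in intact replicates 1 to 4 (chromosome 11, 70454234 to 70459984). It was 1.25, 1.22, 0.526 and 0.854 FPKM in unsorted and 0.544, 0.941, 0.530 and 0.805 FPKM in MACS-sorted replicates. The unsorted and MACS-sorted samples overlapped, and all were below every intact sample. Cxcl1, which attracts neutrophils through Cxcr2, was 0.237, 0, 0 and 0.140 FPKM in intact, 0.226, 0.283, 1.74 and 3.76 FPKM in unsorted and 0.959, 0, 0.611 and 2.05 FPKM in MACS-sorted replicates 1 to 4 (chromosome 5, 90891245 to 90893115). Its log2-fold change of sorted against unsorted DRG was -0.61 ± 1.05 (SE, n = 4 per group, adjusted p = 0.662, limma), with unsorted replicates 3 and 4 far above the other unsorted samples.

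Cxcr4, the receptor of Cxcl12 and the one receptor above 5 FPKM, was depleted by sorting (chromosome 1, 128588199 to 128592299). It was 13.7, 13.02, 9.74 and 9.92 FPKM in unsorted and 1.78, 0.462, 1.97 and 3.40 FPKM in MACS-sorted replicates 1 to 4. No sample overlapped, and the sample with the lowest value was again MACS replicate 2. The log2-fold change was -2.80 ± 0.46 (SE, n = 4 per group, adjusted p = 0.000851, limma) and the ratio of means 6.08. Without MACS replicate 2 the log2-fold change was -2.27 (adjusted p = 7.79e-05, limma).

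Ccr2, the receptor of Ccl2, Ccl7 and Ccl12 on monocytes, was the only other receptor to reach a mean of 1 FPKM (chromosome 9, 124102183 to 124109140). It was 1.57, 1.16, 0.756 and 1.19 FPKM in intact, 1.26, 1.06, 0.436 and 0.529 FPKM in unsorted and 0.0637, 0.0735, 0.0502 and 0.337 FPKM in MACS-sorted replicates 1 to 4. Each MACS-sorted sample was below each of the others, but the gene missed the filter in all 3 comparisons and has no test. The other 15 receptors had group means below 1 FPKM, with Ccr10 at 0.528, 0.665 and 0.316 FPKM in intact, unsorted and MACS-sorted DRG. Cxcr5 and Xcr1, receptors of B cells and of cross-presenting dendritic cells, had a value in every unsorted sample and none above 0 after sorting, as had Ccl8 and Ccl12 among the ligands. The unsorted values were small. Cxcr5 was 0.0245 to 0.0932 FPKM, and an estimated 0.965 to 3.88 fragments lay behind Xcr1, 1.13 to 3.39 behind Ccl8 and 1.12 to 4.53 behind Ccl12. At so few fragments a 0 after sorting cannot be told from a small value missed in counting.

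**Figure D3:**
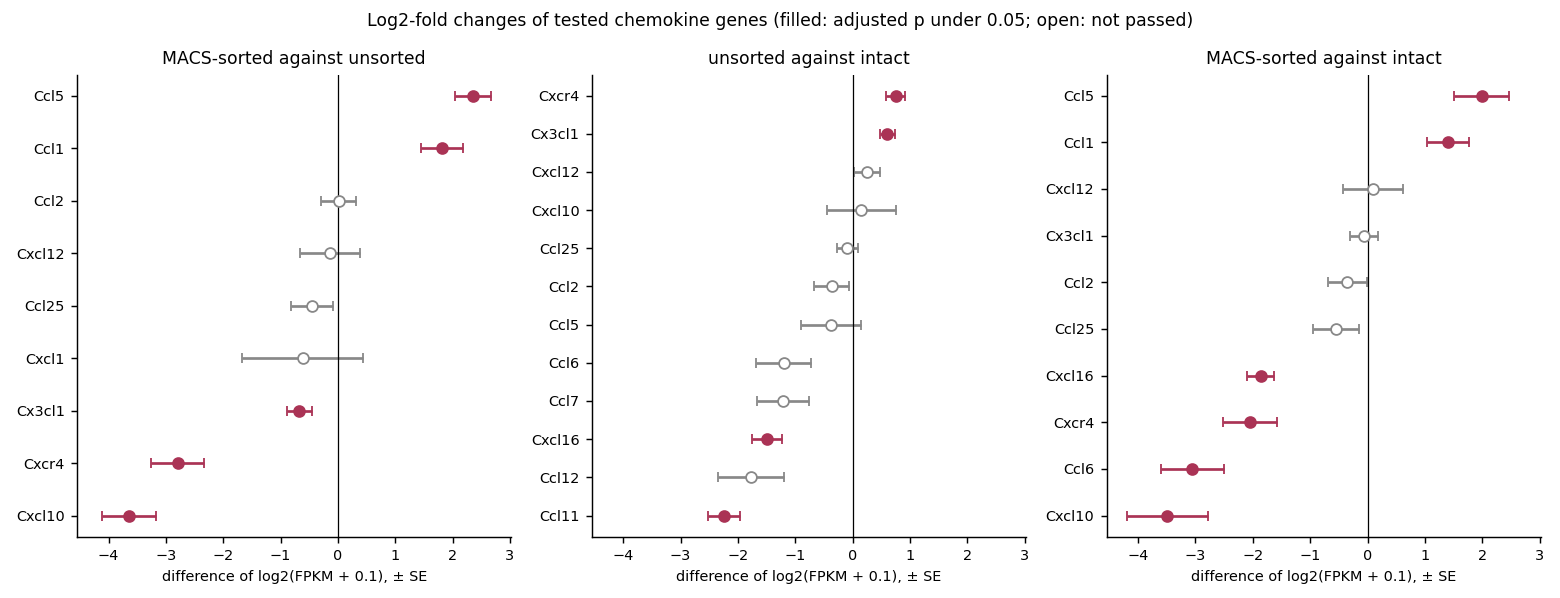
Log2-fold change on the log2(FPKM + 0.1) scale ± SE (x axis, 0 marked) of the chemokine genes tested (y axis) for MACS-sorted against unsorted, unsorted against intact and MACS-sorted against intact DRG, filled at an adjusted p under 0.05 (limma). Ccl11 is left out of the first panel and Ccl11, Ccl12 and Ccl7 of the third, as at least 2 MACS-sorted samples were listed at 0, Ccl5 and Ccl1 lie to the right in both comparisons of sorted DRG, and Ccl11 lies at the far left in the comparison of unsorted with intact DRG.

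Unsorted DRG were next compared with intact DRG, which shows what goes with enzymatic dissociation. Here 12 members passed the filter. Cxcr4 and Cx3cl1 rose, Ccl11 and Cxcl16 fell, and Ccl2, Ccl5, Ccl6, Ccl7, Ccl12, Ccl25, Cxcl10 and Cxcl12 did not pass. The counts of 2 higher and 2 lower of 12 stand beside 14.8% and 7.79% of the 12392 genes tested. Ccl5, Ccl7, Ccl12 and Cxcl16 had unsorted means under 1 FPKM and passed the filter through their intact values alone. The filter thus favoured decreases, and the counts and the median of the members are descriptive only. By the 3 criteria 1 member, Cxcr4, was called higher and 1, Ccl11, lower, against 4.29% and 2.76% of all genes. At an unadjusted p under 0.05 there were 2 higher and 5 lower members. The median log2-fold change was -0.37 for the members and 0.01 for all genes. Of 45 rows with a value, 3 lay wholly higher and 3 wholly lower in unsorted DRG, where 15.0% and 11.0% of all genes did.

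Cxcr4 rose from 8.82, 5.44, 6.88 and 6.34 FPKM in intact replicates 1 to 4 to the unsorted values given above, without overlap. Its log2-fold change was 0.75 ± 0.17 (SE, n = 4 per group, adjusted p = 0.0153, limma). A fit that took its spread from all 12 samples kept the difference but not the call (adjusted p = 0.241, limma). Cx3cl1 rose by 0.60 ± 0.13 on the log2 scale (SE, n = 4 per group, adjusted p = 0.0137, limma), again without overlap, and missed the threshold in the fit on all 12 samples (adjusted p = 0.0630, limma). Cxcr4 is borne by vessels as well as leukocytes, and 8 of the 9 endothelial genes rose in the same comparison with a median log2-fold change of 0.97, while 0 of 9 passed between sorted and unsorted DRG, where Cxcr4 fell. Satellite glial genes moved in both steps, with 4 of 9 higher in unsorted than in intact DRG at a median of 0.41 and 9 of 9 lower after sorting. Over all genes tested 14.8% rose on dissociation, with a median of 0.01, and 27.7% fell on sorting. The part of either cell type in Cxcr4 was not tested.

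Ccl11 fell by 2.24 ± 0.29 on the log2 scale (SE, n = 4 per group, adjusted p = 0.00252, limma), or 5.10-fold in the ratio of means, and by 1.96 without intact replicate 1 (adjusted p = 0.000176, limma). Cxcl16 fell by 1.49 ± 0.25 (SE, n = 4 per group, adjusted p = 0.00615, limma), or by 0.96 with a pseudocount of 1. Fibroblast and macrophage genes moved with them. Of the 9 fibroblast genes 7 fell, with a median log2-fold change of -1.04, and of 13 macrophage genes tested 10 fell, with a median of -1.23. Over all genes tested 7.79% fell, with a median of 0.01. None of either list was at 0 in all samples of these groups, and their part in the change of Ccl11 and Cxcl16 was not tested.

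Ccl2 changed by -0.37 ± 0.31 on the log2 scale (SE, n = 4 per group, adjusted p = 0.412, limma). Ccl12, Ccl7 and Ccl6 also had lower means in unsorted DRG without passing the test. Ccl12 and Ccl7 passed the filter through their intact values alone, which favoured a decrease. The log2-fold changes were -1.77 ± 0.58 for Ccl12 (SE, n = 4 per group, adjusted p = 0.0557, limma), -1.21 ± 0.45 for Ccl7 (adjusted p = 0.0850, limma) and -1.20 ± 0.48 for Ccl6 (adjusted p = 0.100, limma). Ccl6 passed with the replicate number as a block (adjusted p = 0.0288, limma), and Ccl12 passed in the fit on all 12 samples (adjusted p = 0.0491, limma) and without intact replicate 3 (adjusted p = 0.0309, limma). The groups overlapped for Ccl12, Ccl7 and Ccl6, and in each of these 3 genes intact replicate 1 was the highest sample. Without it the changes of Ccl7 and Ccl6 were -0.86 and -0.85, and Ccl12 no longer passed the filter. Cxcl10 changed by 0.15 ± 0.61 with intact replicate 1 (SE, n = 4 per group, adjusted p = 0.881, limma) and by 0.81 without it (adjusted p = 0.0713, limma).

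Cxcl1 was under the filter in this comparison, and its 2 highest values among intact and unsorted samples were those of unsorted replicates 4 and 3. The same samples had the highest sums of early response genes. Fos, a subunit of AP-1, was 55.6, 57.7, 191 and 314 FPKM in unsorted replicates 1 to 4 and 2.07 to 4.19 FPKM in intact samples, and 10 of 14 early response genes rose with a median log2-fold change of 1.73. Over all genes tested 14.8% rose, with a median of 0.01. Zfp36, which promotes the decay of chemokine mRNA, was 15.9, 14.4, 62.0 and 95.2 FPKM in unsorted and 4.36 to 6.39 FPKM in intact samples. Summed early response genes were 258, 263, 686 and 1009 FPKM in unsorted replicates 1 to 4 and 170 to 310 FPKM in MACS-sorted samples. Not every sample went the same way. Cxcl1 was 0.226 and 0.283 FPKM in unsorted replicates 1 and 2, near the 0.237 FPKM of intact replicate 1. In MACS replicate 4, with an early response sum of 310 FPKM, Cxcl1 was 2.05 FPKM and so above unsorted replicate 3. Cxcl2, a further neutrophil attractant beside Cxcl1 in the genome, was 0.128, 0.180, 0.872 and 0.212 FPKM in unsorted replicates and so was high in replicate 3 but not in replicate 4. The part of the early response in Cxcl1 was not tested.

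**Figure D4:**
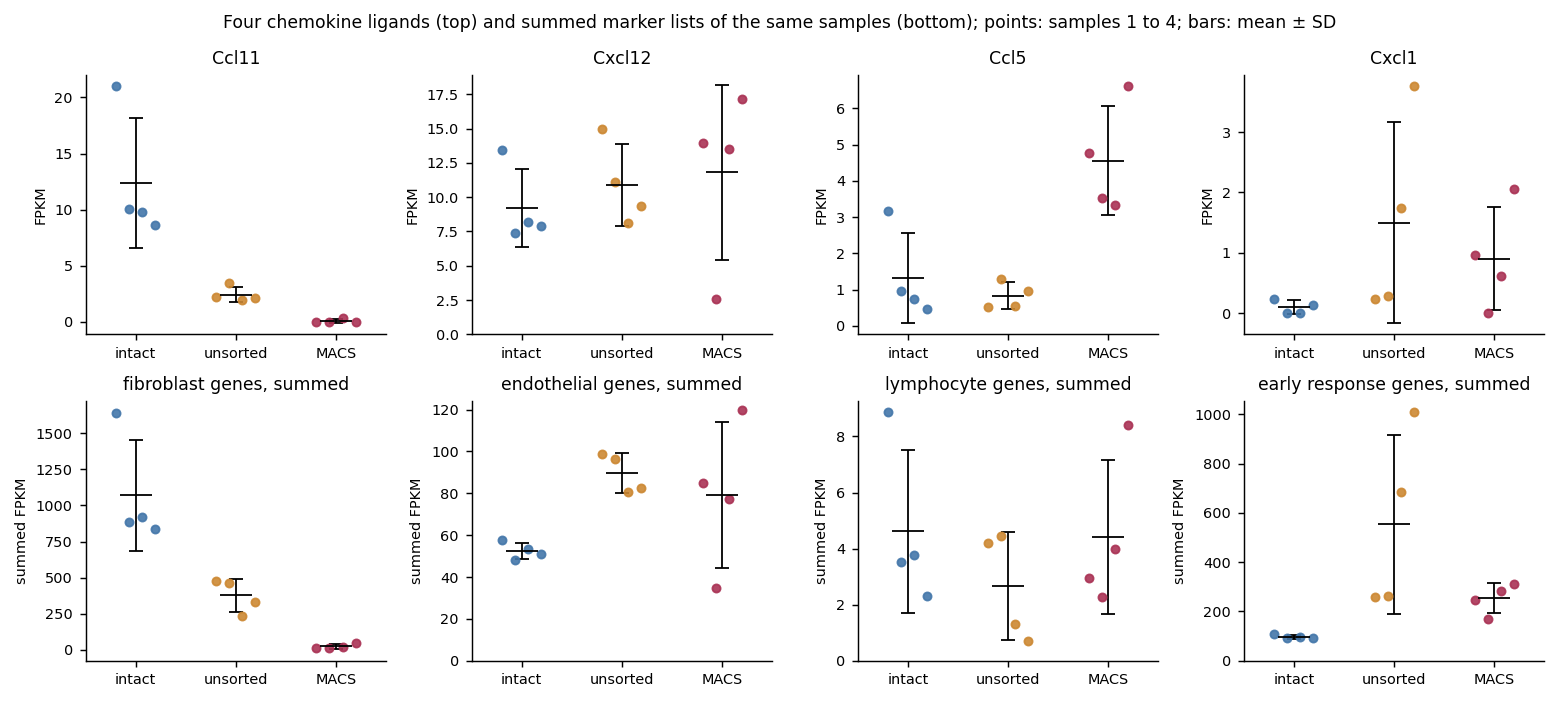
Ccl11, Cxcl12, Ccl5 and Cxcl1 (top row, FPKM on y axes) above the summed FPKM of fibroblast, endothelial, lymphocyte and early response genes (bottom row) in intact, unsorted and MACS-sorted DRG, with points for samples 1 to 4 from left to right and bars for mean ± SD. MACS replicate 2 is low for both Cxcl12 and the endothelial sum, unsorted replicates 3 and 4 are high for both Cxcl1 and the early response sum, and the MACS-sorted samples stand above the others for Ccl5 but not for the lymphocyte sum. The fibroblast, lymphocyte and early response sums are also lowest in MACS replicate 2 among the MACS-sorted samples. MACS replicate 4 lies above unsorted replicate 3 for Cxcl1 but below it for the early response sum.

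MACS-sorted and intact DRG were compared last. This comparison shares its samples with the former ones and is no separate evidence. Of 13 members tested, Ccl5 and Ccl1 rose and Ccl11, Ccl12, Ccl6, Ccl7, Cxcl10, Cxcl16 and Cxcr4 fell, so that 2 were higher and 7 lower, where 14.1% and 20.6% of the 12234 genes tested were. Of the lower members, all but Cxcr4 had a sorted mean under 1 FPKM and passed the filter through their intact values alone. Ccl1 passed it through its sorted values alone. The filter thus favoured differences in these directions, and the counts and the median of the members are descriptive only. By the 3 criteria 0 were called higher and 2, Ccl11 and Cxcr4, lower, against 7.54% and 10.7% of all genes, and by limma the unadjusted p was under 0.05 for 2 higher and 7 lower members. The median log2-fold change was -1.86 for members and -0.04 for all genes. Of 44 rows with a value, 2 lay wholly higher and 17 wholly lower in MACS-sorted DRG, where 11.3% and 22.0% of all genes did.

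The log2-fold change was -1.86 ± 0.24 for Cxcl16 (SE, n = 4 per group, adjusted p = 0.000309, limma). For Cxcr4 it was -2.04 ± 0.47 (adjusted p = 0.00810, limma) and for Cxcl10 -3.49 ± 0.71 (adjusted p = 0.00408, limma). Ccl6 fell by 3.05 ± 0.55 (SE, n = 4 per group, adjusted p = 0.00205, limma). With a pseudocount of 1 these changes were -1.15 for Cxcl16, -1.73 for Cxcl10 and -1.43 for Ccl6, each past the threshold. Ccl11, Ccl7 and Ccl12 fell with adjusted p of 2.26e-05, 0.000965 and 0.000540 (limma). No fold is given for them, because Ccl12 was listed at 0 in all sorted samples and Ccl11 and Ccl7 rested there on an estimated 5.124 and 2.097 fragments at most. Failed estimates among the zeros of these genes were not tested for, so their decreases carry that limit. Ccl5 rose by 1.99 ± 0.49 (SE, n = 4 per group, adjusted p = 0.0109, limma), and passed without intact replicate 1 as well (adjusted p = 0.000408, limma). Ccl1 rose by 1.41 ± 0.36 (SE, n = 4 per group, adjusted p = 0.0146, limma), or by 0.81 with a pseudocount of 1. Cxcl12 had a log2-fold change of 0.10 ± 0.52 (SE, n = 4 per group, adjusted p = 0.898, limma), and of 0.72 without MACS replicate 2 (adjusted p = 0.0331, limma). Without intact replicate 1, Ccl6, Ccl7, Ccl12 and Cxcl10 no longer passed the filter and Ccl1, Ccl5, Ccl11, Cxcl16 and Cxcr4 passed the test as before.

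In the same comparison 10 of 10 macrophage genes tested and 9 of 9 fibroblast genes fell, with median log2-fold changes of -4.57 and -6.18. Over all genes tested 20.6% fell, with a median of -0.04. Of the macrophage genes Ms4a7 was listed at 0 in all MACS-sorted samples and Emr1, the F4/80 antigen, reached 0.0220 FPKM at most, and of the fibroblast genes Dpt was listed at 0 in them. Their part in the decrease of Ccl6, Ccl7, Ccl12 and Cxcl10 was not tested.

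Ligands and receptors were set against each other through 34 known pairs. Both partners had a mean of at least 1 FPKM for 6 pairs in intact DRG, which were Ccl2, Ccl7 and Ccl12 with Ccr2, Cxcl12 with Cxcr4 and with Ackr3, and Cx3cl1 with Cx3cr1. Only the 2 pairs of Cxcl12 did so in unsorted DRG and only Cxcl12 with Cxcr4 in MACS-sorted DRG. Ccl11 and Ccl5 had no such partner among their pairs in any group. Ackr1, which binds many CC and CXC ligands and is given below, was not in the list. The counts and the lack of a partner therefore hold for these 34 pairs only. Ccr3, which is paired with both, was at 0.0307 FPKM or below in every group mean. Ccr1, which is also paired with Ccl5, was at 0.426, 0.188 and 0.0519 FPKM in intact, unsorted and MACS-sorted DRG.

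Partners outside the family name were examined as well. Ackr3, the scavenging receptor of Cxcl12, was 8.08, 5.74, 5.78 and 5.49 FPKM in intact, 4.54, 5.00, 2.80 and 3.51 FPKM in unsorted and 0.118, 0.0678, 0.433 and 0.475 FPKM in MACS-sorted replicates 1 to 4. It fell in both steps, by 0.67 ± 0.19 on dissociation (SE, n = 4 per group, adjusted p = 0.0369, limma) and by 3.61 ± 0.43 on sorting (adjusted p = 0.000108, limma). Cx3cr1 was 2.35, 1.30, 1.00 and 1.61 FPKM in intact and 0.997, 0.949, 0.333 and 0.504 FPKM in unsorted replicates, and was listed at 0 in 3 MACS-sorted samples and at 0.151 FPKM in replicate 4.

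Ackr1, the Duffy receptor, which binds many CC and CXC ligands without signalling, was more abundant than any member. It was 46.9, 71.1, 74.8 and 68.7 FPKM in intact, 92.5, 91.1, 98.5 and 90.7 FPKM in unsorted and 46.3, 52.2, 46.4 and 48.8 FPKM in MACS-sorted replicates 1 to 4. It rose on dissociation by 0.53 ± 0.14 (SE, n = 4 per group, adjusted p = 0.0261, limma) and fell on sorting by 0.94 ± 0.06 (adjusted p = 3.78e-06, limma). Gpr35, a receptor for which CXCL17 has been proposed as a ligand, rose on sorting by 1.29 ± 0.13 (SE, n = 4 per group, adjusted p = 3.77e-05, limma), from 6.61 to 7.86 FPKM in unsorted to 14.4 to 22.2 FPKM in MACS-sorted samples, while Cxcl17 was listed at 0 throughout. Of the 8 atypical and other receptors examined, 3 were tested between sorted and unsorted DRG, and 1 rose and 2 fell, where 18.8% and 27.7% of all genes tested did.

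The signalling genes downstream of chemokine receptors are shared with many other receptors. Of 25 examined 18 were tested, and between sorted and unsorted DRG 12 rose and 2 fell, with a median log2-fold change of 0.45. Over all genes tested 18.8% rose and 27.7% fell, with a median of -0.04. Gnao1 and Plcb3, a G protein subunit and a phospholipase of neurons, rose by 0.80 ± 0.12 and 0.99 ± 0.14, while Gnai1, a Gi subunit, fell by 1.31 ± 0.08. Of 35 inducers and feedback regulators 18 were tested in that comparison, and 0 rose and 5 fell. Tnfrsf1a, the main TNF receptor, fell by 1.91 ± 0.29 (SE, n = 4 per group, adjusted p = 0.000471, limma) and Nfkb1, a subunit of NF-kappaB, by 1.12 ± 0.11 (adjusted p = 3.17e-05, limma). Between unsorted and intact DRG 2 of 21 inducers and feedback regulators rose, Zfp36 and Socs3, and 0 fell, against 14.8% and 7.79% of all genes. Of 20 rows for other ligands 5 were tested between sorted and unsorted DRG, of which 1 rose and 2 fell. The latter were the platelet chemokine Pf4 and Rarres2, the precursor of chemerin. Rarres2 was listed at 0 in all MACS-sorted samples and ranged from 19.7 to 28.1 FPKM in unsorted samples. A listed 0 can be a failed estimate, so the decrease of Rarres2 is not taken as established.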

How the data were processed

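Sequenced were polyA-selected RNA libraries (directional kit, 100 bp reads) of 12 samples in 3 groups of 4, as GEO's labels give them. The authors aligned reads to mm10 with TopHat2, merged lanes with SAMtools and estimated expression with Cufflinks 2.1.1, and deposited 1 FPKM value for each gene in each sample, without counts. The use of strand in counting is not given in the sources used here. Groups were compared with limma 3.58.1 (R 4.3.3) with its trend option, two-sided, after adding a pseudocount of 0.1 to FPKM and taking log2, over genes averaging 1 FPKM or more in the 8 samples compared. Calls followed the authors' criteria (adjusted p under 0.05, log2 ratio of means beyond 0.5, mean above 5 FPKM in the higher group), with limma in place of CuffDiff. Nothing says that samples of a group came from separate days, so p-values measure the spread between these samples. Values in every sample and tests are printed for members with a mean of at least 1 FPKM in at least 1 group, and the other members by ranges and counts. The members and all gene lists were chosen with earlier results of these data known. The values of 1 receptor entered the counts and are not reported here.

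Depth was estimated from the spacing of low FPKM values, taking fragments to be 150 bases long, and gives fragment numbers that carry counting error only. Transcript lengths and exon overlaps came from GENCODE M21, and promoters from RefSeq (GRCm38.p6). The deposited 0-based starts were made 1-based. The fits and the depth estimate were tested on simulated data. As alternatives served a pseudocount of 1 or 0.01, a filter of 5 FPKM or none, a fit on all 12 samples, a replicate block, no trend, median-ratio and quantile scaling, the adjusted p alone, a limit of 1 FPKM and each replicate left out. After the data were seen, the removal of red blood cell genes from the total and the averaging of unsorted replicates 1 and 2 were added, since these lay closer to each other (median absolute log2 difference 0.0668) than any other pair of a group.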

Additional observations from a re-analysis of the deposited data

Results flagged for a closer look

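Within groups of 4 samples, the 15 members above 1 FPKM gave 45 sets of values, and in 8 of them the gap between the highest sample and the next exceeded Dixon's 95% critical share of the range. Chance marks about 1 in 20 such sets, a rate that does not hold where values are at 0. In the set of Ccl11 in MACS-sorted DRG, 3 values were 0, so that any value above 0 in the other sample would have been marked. In 4 of the 8 the sample was intact replicate 1. Ccl11 was 21.0 FPKM there against 8.60 to 10.0 in the other intact samples, Cxcl12 was 13.5 against 7.40 to 8.16, Cxcl10 was 10.8 against 1.16 to 2.57, and Ccl2 was 3.90 against 1.55 to 1.88. That sample also had the highest sums of fibroblast, macrophage and skeletal muscle genes among the intact samples. The same held for satellite glial, Schwann cell, endothelial, lymphocyte, platelet, red blood cell, early response and nociceptor genes. It did not hold for neutrophil, vascular mural cell and neuronal genes. Over all genes its FPKM summed to 345341, against 283676 to 293648 in the other intact samples. The part of any of these in the values was not tested.

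Ccl1 was 0.628 FPKM in unsorted replicate 4 against 0.351 to 0.390 in the other unsorted samples. In MACS-sorted DRG, Ccl11 was 0.327 FPKM in replicate 3 and 0 in the others, Ccl6 was 0.640 FPKM in replicate 1 against 0.0921 to 0.108, and Ccr2 was 0.337 FPKM in replicate 4 against 0.0502 to 0.0735. MACS replicate 4 had the highest macrophage sum of the sorted samples, 7.84 FPKM, and replicates 1 and 3 had 3.26 and 1.36 FPKM.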

How the results depend on the processing

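By the adjusted p alone, 2 members were higher and 4 lower in sorted than in unsorted DRG, 2 and 2 in unsorted than in intact, and 2 and 7 in sorted than in intact DRG. By the 3 criteria, quantile normalization called 1 member higher in each comparison of sorted DRG, namely Ccl5, the fit on all 12 samples called 0 higher in unsorted DRG, and the filter of 5 FPKM left 1 lower in sorted against intact DRG, Ccl11. By the same criteria, leaving out 1 replicate gave 0 to 1 members higher in sorted than in intact DRG, the 1 being Cxcl12 without MACS replicate 2. The limit of 1 FPKM in place of 5 in every sample was passed by 10 intact, 7 unsorted and 3 MACS-sorted members.

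Quantile normalization, which put the median of all genes at 0.10, 0.03 and 0.13 in sorted against unsorted, unsorted against intact and sorted against intact DRG, changed the sign of log2-fold changes that had not passed. For sorted against unsorted DRG these were Ccl25 (0.062) and Cxcl12 (0.028), for unsorted against intact DRG Ccl25 (0.10), and for sorted against intact DRG Ccl2 (0.24), Ccl25 (0.16) and Cx3cl1 (0.61, adjusted p = 0.0301, limma). With unsorted replicates 1 and 2 averaged, Ccl2 was -0.066 in sorted against unsorted DRG, and Cx3cl1 lost its call (adjusted p = 0.0678, limma). The causes were not tested.

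Leaving out replicates changed signs within -0.19 to 0.26 for Ccl2, -1.20 to 0.27 for Cxcl1 and -0.42 to 0.47 for Cxcl12 in sorted against unsorted DRG. In unsorted against intact DRG the ranges were -0.19 to 0.066 for Ccl25 and -0.23 to 0.81 for Cxcl10, and in sorted against intact DRG -0.25 to 0.063 for Cx3cl1 and -0.17 to 0.72 for Cxcl12. Ccl12 passed in unsorted against intact DRG with the fit on all 12 samples (adjusted p = 0.0491, limma) and without intact replicate 3 (adjusted p = 0.0309, limma).

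Same-numbered samples did not deviate together (correlations of -0.14 to 0.07 over 12283 genes), so the numbers were not taken as pairs. The replicate block changed 1 call, that of Ccl6 in unsorted against intact DRG (-1.20, adjusted p = 0.0288, limma), and left the counts by the 3 criteria at 0 higher and 1 lower, 1 and 1, and 0 and 2. Fragment numbers of a few per sample limit what can be said of members below 1 FPKM.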

Other observations

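Among ligands outside the set, Xcl1, a product of natural killer and T cells that acts on Xcr1, was listed at 0 in all intact samples, at 0.212 FPKM in unsorted replicate 4, at 0 in MACS replicates 1 and 2, at 0.192 FPKM in MACS replicate 3 and at 2.63 FPKM in MACS replicate 4. Ccl4, a macrophage and lymphocyte product, was highest in the same samples, with 1.24 FPKM in unsorted replicate 4 and 1.88 FPKM in MACS replicate 4. Cd3e, a T cell receptor subunit, was 1.41 FPKM in MACS replicate 4 and between 0.0921 and 0.407 FPKM in MACS replicates 1, 2 and 3.

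Cxcl9, induced by interferon gamma, was 2.16 FPKM in intact replicate 1 and 0.0371 to 0.274 FPKM in the other intact samples, and Irf1, a factor of the same response, was 14.8 FPKM against 5.27 to 7.05. Ccl27a was listed at 0 in 3 intact samples and at 6.78 FPKM in intact replicate 2, and ranged from 3.94 to 9.80 FPKM in all other samples. A listed 0 can be a failed estimate, so these zeros are not read as a lower level of Ccl27a in intact DRG.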
